A study of Rattus norvegicus with 5 samples.

Results

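Heat shock proteins, J proteins and the chaperonins were followed across 1 normal rat liver and 4 rat hepatocellular carcinoma lines. They were taken as every probe whose platform gene symbol begins with Hspa, Hspb, Hsp90, Hspd, Hspe, Hsph, Dnaja, Dnajb or Dnajc, or with Cct and a digit, which gave 84 of the 33849 discovery probes on the array. Of these probes, 82 were paired with a single gene, together 63 genes of the 12198 named on the array, and 2 were paired with several genes. The prefixes also took in 2 proteins that bind heat shock proteins rather than belong to a chaperone family, Hspbp1 and Hspbap1.

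The study set a pair of lines with low metastatic ability, C5F and C6, against a pair with high metastatic ability, N1 and L2, with untreated liver as the reference. All 4 lines came from carcinomas of male F344 rats given N-nitrosomorpholine and diethylnitrosamine, with a labelled age of 31 weeks. The liver came from 1 untreated male SD rat of 50 weeks, so strain, age, carcinogen and culture all separate it from the lines and cannot be told apart. Each sample was hybridised to 1 single-colour CodeLink rat whole-genome array, so n = 2 lines for each class and n = 1 for liver, and p-values measure the spread between the lines of a class. The labels do not say how many cultures or clones stand behind a line.

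Chaperones bind unfolded proteins and let them fold or pass them on for degradation. In the cytosol, Hsp70 proteins work with J proteins, which deliver clients and stimulate ATP hydrolysis, and hand some clients to Hsp90, while the ring-shaped CCT chaperonin folds actin and tubulin. In the endoplasmic reticulum the Hsp70 protein Hspa5 (BiP) does this work for secreted proteins, of which liver makes many, and the unfolded protein response induces it. In mitochondria, Hspa9 draws imported proteins in and the Hspd1-Hspe1 chaperonin folds them.

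Most of the values rest on part of the members, since spots were dim or irregular. Of the 84 probes, 59 probes of 50 genes stood above background in the liver sample or in 2 or more lines, 18 on all 5 arrays and 21 on none of their usable spots. Another limit was spot quality: 60 of the 420 member spots were irregular, contaminated or masked and were treated as missing. This left 37 genes testable between the classes and 30 against liver, each gene standing on its brightest probe. No probe was named for Hsp90aa1, Hsp90b1, Dnaja1, Dnaja3 or Cct7, which were not analysed here, and the only probe of Hspa9 was near background on all 5 arrays. Of the probes with several genes, that of the stress-inducible pair Hspa1a and Hspa1b was near background throughout. The other, shared by Hspe1 and Pdcd2, had log2 signals of 10.03 in liver, 11.40 for C5F, 11.15 for C6, 10.93 for N1 and 10.84 for L2, a difference from liver that missed the threshold (limma adjusted p = 0.061).

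Over the whole array, 30.6% of discovery probes in liver and 32.7% to 39.2% in the lines were above background. Signals are given as log2 of the quantile-normalised intensity, with a floor of 1.34, and "near background" marks spots that the scanner software called so. A level compares samples for 1 probe only, since probes of different genes bind differently. The hepatocyte markers checked the labels. Their summed signal was 36800 in liver, 3340 for C5F and 38.4 to 57.1 in the other 3 lines, in which 1 of 9 marker genes was above background. Kupffer and endothelial markers also separated liver from the lines. Kupffer cell markers summed to 4480 in liver and 49 to 79.8 in the lines, and endothelial markers to 397 and 19.8 to 37.5. Stellate cell markers had 3 of 5 genes above background in liver and 0 or 1 in each line, with sums of 293 in liver, 142 for C5F, 3 for C6, 192 for N1 and 6.11 for L2. The sums for C6 and L2 lack Col1a1, which had no usable spot there and log2 signals of 7.56 in liver, 7.10 for C5F and 7.49 for N1. Cholangiocyte markers summed to 53.4 in liver, 2290 for C5F, 1380 for C6, 8.6 for N1 and 580 for L2. Of these, Krt19 had no usable spot in liver or N1, and Epcam none in C6 or N1. Cell division markers summed to 199 in liver and 1980 to 2330 in the lines. The liver sum lacks Cdk1, which had no usable spot there and log2 signals of 9.23 to 10.13 in the lines. The sum for C6 lacks Mki67 and Aurkb, and that for N1 lacks Ccnb1 and Aurkb. In such bulk samples, fewer cells of a type and less RNA per cell cannot be told apart, and the part of cell makeup or of division in the differences from liver was not tested.

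Promoter sequence was looked at first, because the heat shock response and the unfolded protein response act through known short elements. RefSeq windows (build GRCr8) of 250 bases before to 50 after the start were found for 52 of the 63 genes. The 3-unit heat shock element (GAA, TTC and GAA with any 2 bases between units, searched on both strands) lay in 5 of the 52 windows (9.62%), those of Cct4, Hspa8, Hspd1, Hspe1 and Hsph1, and in 0.798% of all 33469 windows. The 2-unit forms, GAA then TTC or TTC then GAA with the same spacing, which the longer motif also contains, were in 32.7% of the members' windows and 15.9% of all. The reticulum stress element (CCAAT and CCACG with any 9 bases between, both strands) lay in the windows of Hspa5 and Dnajc3 (3.85% of members, 0.0657% of all). Its shorter relative (ATTGG and CCACG with any 1 base between, both strands) lay in that of Dnajb11 (1.92% and 0.0508%). By compartment, the 3-unit heat shock element was in 2 of 27 cytosolic, 1 of 6 CCT, 2 of 4 mitochondrial and 0 of 11 reticulum windows, and the reticulum elements were in 3 of the 11 reticulum windows and no others of the members. Hspd1 and Hspe1 carry the same 3-unit matches in bases that their windows share, so 1 stretch counts for both genes in these shares. A match is a description of letters, not of binding.

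The windows below are shown because they carry the element of each compartment beside members whose values follow, with the matches in capitals. They lie at chr8:50080286-50080486 (plus strand) for Hspa8, chr9:64084221-64084320 (plus) for Hspe1, chr12:10427268-10427367 (plus) for Hsph1, chr3:38452916-38453015 (plus) for Hspa5, chr15:102432493-102432592 (plus) for Dnajc3 and chr11:91672800-91672899 (minus) for Dnajb11.
Hspa8: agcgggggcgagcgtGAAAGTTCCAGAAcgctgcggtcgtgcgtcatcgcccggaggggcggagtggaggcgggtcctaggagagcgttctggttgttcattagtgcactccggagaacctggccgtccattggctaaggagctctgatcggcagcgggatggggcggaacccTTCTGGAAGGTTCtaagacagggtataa
Hspe1: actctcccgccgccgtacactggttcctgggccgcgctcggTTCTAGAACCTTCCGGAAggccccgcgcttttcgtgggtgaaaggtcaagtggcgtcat
Hsph1: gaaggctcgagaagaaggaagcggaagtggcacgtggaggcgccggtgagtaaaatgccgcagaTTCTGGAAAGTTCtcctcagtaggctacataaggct
Hspa5: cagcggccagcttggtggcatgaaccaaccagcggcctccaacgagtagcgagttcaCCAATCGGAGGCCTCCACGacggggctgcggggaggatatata
Dnajc3: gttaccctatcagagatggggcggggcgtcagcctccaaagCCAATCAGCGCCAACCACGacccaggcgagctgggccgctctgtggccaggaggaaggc
Dnajb11: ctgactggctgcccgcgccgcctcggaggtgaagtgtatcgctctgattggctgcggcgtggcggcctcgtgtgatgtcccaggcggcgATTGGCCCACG
Hspa8 holds 2 separate 3-unit matches, and Hspe1 holds 2 that overlap in a single capital run. Hspd1 and Hspe1 are read from opposite strands and their windows share 211 bases, so the run printed for Hspe1 is also that of Hspd1.

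The first comparison asked how the chaperones of the carcinoma lines differ from those of normal liver. Above liver lay 9 of 15 tested cytosolic and 4 of 5 tested CCT members, beside 3247 of 5845 named genes tested. The cytosolic share is near that of all named genes. Reticulum members were divided, and few members passed the test. Of 30 genes tested, 3 rose, Hspbap1, Hsp90ab1 and Cct6a, where 8.73% of all named genes tested rose, and 3 fell, Hspb2, Hspb3 and Dnajc1, where 9.91% fell (limma, Benjamini-Hochberg adjusted p below 0.05). Both counts are near the background share. The median difference of the 30 genes was 0.56 on the log2 scale, beside 0.17 for all named genes tested. With both directions together, 16 of 30 had an unadjusted p below 0.05, where 39.3% of all named genes did.

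**Figure D1:**
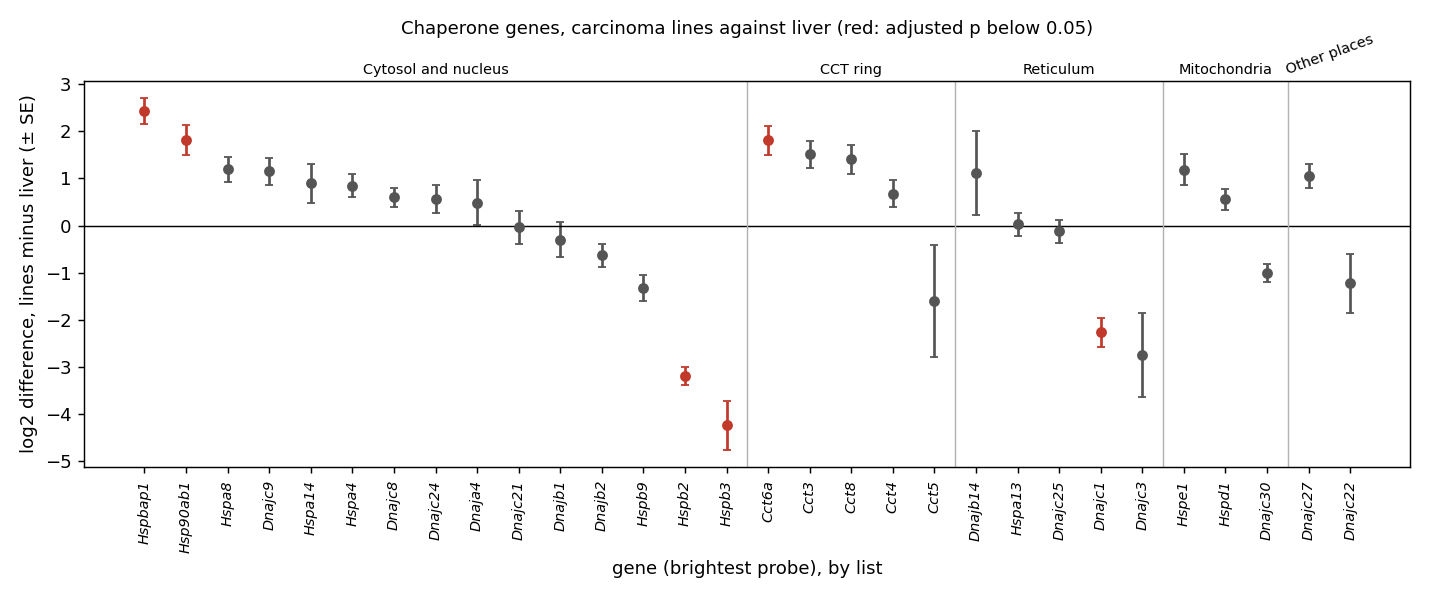
Difference of the 4 carcinoma lines from liver (log2, mean of both class means minus liver, bars ± SE from limma) for the 30 chaperone genes tested, ordered within cytosol, CCT ring, reticulum, mitochondria and other places. Hspbap1 (2.43), Hsp90ab1 (1.81) and Cct6a (1.81) lie above 0 and Hspb2, Hspb3 and Dnajc1 below it at adjusted p below 0.05.

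Among cytosolic members, Hsp90ab1, the constitutive Hsp90, had log2 signals of 7.47 in liver, 9.69 for C5F, 9.09 for C6, 9.22 for N1 and 9.12 for L2. All 4 lines were above liver, by 1.81 ± 0.32 (SE; limma adjusted p = 0.0453). Hspa8, the constitutive Hsp70 of the cytosol, had 10.20 in liver, 11.16 for C5F, 11.59 for C6, 11.44 for N1 and 11.39 for L2. It too was above liver in every line, but its difference of 1.19 ± 0.27 missed the threshold (limma adjusted p = 0.0661). That size depends on the processing. With arrays scaled to the median of probes above background it was 0.70 (limma adjusted p = 0.24). It was 0.54 with the authors' normalized intensity and 1.16 with an offset of 50 in place of the floor (limma adjusted p = 0.46 and 0.036).

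The largest positive difference among the 30 genes tested was that of Hspbap1, whose product binds the small heat shock protein Hspb1. Its log2 signals were 5.23 in liver, 8.12 for C5F, 7.95 for C6, 7.50 for N1 and 7.07 for L2, with a difference of 2.43 ± 0.27 (limma adjusted p = 0.0231). Every line stood well above liver, and both low-metastatic lines stood above both high-metastatic lines.

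Hspa4, an Hsp110-type exchange factor that releases ADP from Hsp70, was near background in liver at 3.11 and reached 3.51 for C5F, 3.86 for C6, 4.20 for N1 and 4.25 for L2. The mean of the lines was at least 1.06-fold higher (limma adjusted p = 0.0997). Dnajb1, a heat-inducible J protein, had 6.94 in liver, 6.64 for C5F, 6.94 for C6, 6.82 for N1 and 6.15 for L2. Its levels in liver and the lines overlapped, with a difference of −0.30 ± 0.37 (limma adjusted p = 0.589).

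The small heat shock proteins, which hold unfolded proteins without using ATP, went different ways. Hspb3, best known from muscle, had 7.03 in liver and was near background in every line, at 3.07 for C5F, 3.18 for C6, 1.88 for N1 and 3.02 for L2, which makes the lines at least 12.0-fold lower (limma adjusted p = 0.0266). Such bounds set the brighter mean against the lowest signal above background on each array. Hspb2, also known from muscle, had 4.54 in liver and was at the floor of 1.34 in all 4 lines, at least 2.17-fold lower (limma adjusted p = 0.01). With every line set to the same floor value, that p-value measures no spread between the lines of a class. Hspb2 and Hspb3 were kept because liver alone stood above background. The RefSeq neighbour of Hspb2 is Cryab, another small heat shock protein and among the cytosolic partners below. Cryab had 4.31 in liver and 1.34 to 1.99, near background, in the lines. The stellate and endothelial marker sums given above also fell from liver to lines, though the stellate sums for C6 and L2 lack Col1a1. The part of these cell types in the differences was not tested. Hspb9 had 5.47 in liver, 4.09 for C5F, 4.38 for C6, 4.21 for N1 and 3.83 for L2, a difference of −1.34 ± 0.28 that missed the threshold (limma adjusted p = 0.0586).

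Several cytosolic members had too few usable spots for a test. Hspb1, an abundant small heat shock protein, had 6.83 in liver, 8.97 for N1 and 7.78 for L2, with no usable spot in C5F or C6. Its fellow small heat shock protein Hspb8 had no liver value on its brightest probe, with 7.55 for C5F and 7.20 for L2, and a dimmer probe read 4.34 in liver, 6.05 for C5F, 5.38 for C6 and 5.53 for L2 (difference 1.28 ± 0.43, limma adjusted p = 0.166). Hsph1, the heat-inducible Hsp110, had 7.95 in liver, 6.91 for N1 and 7.50 for L2. None of the 3 could be tested against liver on its brightest probe.

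The CCT subunits stood mostly above liver. Of the 6 ring genes with a Cct symbol and a probe, 5 were tested and 4 of these were above liver. Cct6a alone passed the test, and the median difference was 1.41. The alpha subunit, Tcp1, carries no Cct symbol and is counted among the cytosolic partners. Its bright probe had 9.21 in liver, 9.33 for C5F, 9.78 for C6, 8.86 for N1 and 9.40 for L2, a difference of 0.13 ± 0.35 with N1 below liver (limma adjusted p = 0.809). With Tcp1 counted, a choice made after its values were seen, 7 ring genes had a probe and 6 were tested, with a median of 1.04. Cct6a, the zeta subunit, had 8.47 in liver, 10.30 for C5F, 10.24 for C6, 10.02 for N1 and 10.58 for L2, a difference of 1.81 ± 0.31 (limma adjusted p = 0.0425). The 4 lines lay close together, all above liver.

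Cct3, the gamma subunit, had 9.15 in liver, 11.34 for C5F, 11.02 for C6 and 10.13 for N1, with no usable spot in L2 (difference 1.51 ± 0.29, limma adjusted p = 0.0812). Cct8, the theta subunit, had 8.47 in liver, 10.02 for C5F, 10.18 for C6, 9.37 for N1 and 9.92 for L2 (difference 1.41 ± 0.31, limma adjusted p = 0.0643). A dimmer Cct8 probe was near background in liver and at least 2.00-fold higher in the lines with a usable spot (limma adjusted p = 0.0349). Every usable line value of these 2 subunits was above liver, though the brightest probes missed the threshold.

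The remaining CCT probes were dim. Cct4, the delta subunit, had 2.97 in liver, 3.69 for C5F, 4.16 for C6, 3.27 for N1 and 3.47 for L2, of which those in C5F and C6 were above background (limma adjusted p = 0.191). Cct2, the beta subunit, was near background at 3.39 in liver and had 5.66 for C6 and 5.25 for L2, at least 3.0-fold higher with no test. Cct5, the epsilon subunit, departed from the others. It had 4.67 in liver and 5.09 for N1, and was near background at 2.96 for C5F, 1.34 for C6 and 2.86 for L2 (limma adjusted p = 0.387). Subunits of the ring thus did not all lie on the same side of liver in these probes.

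**Figure D2:**
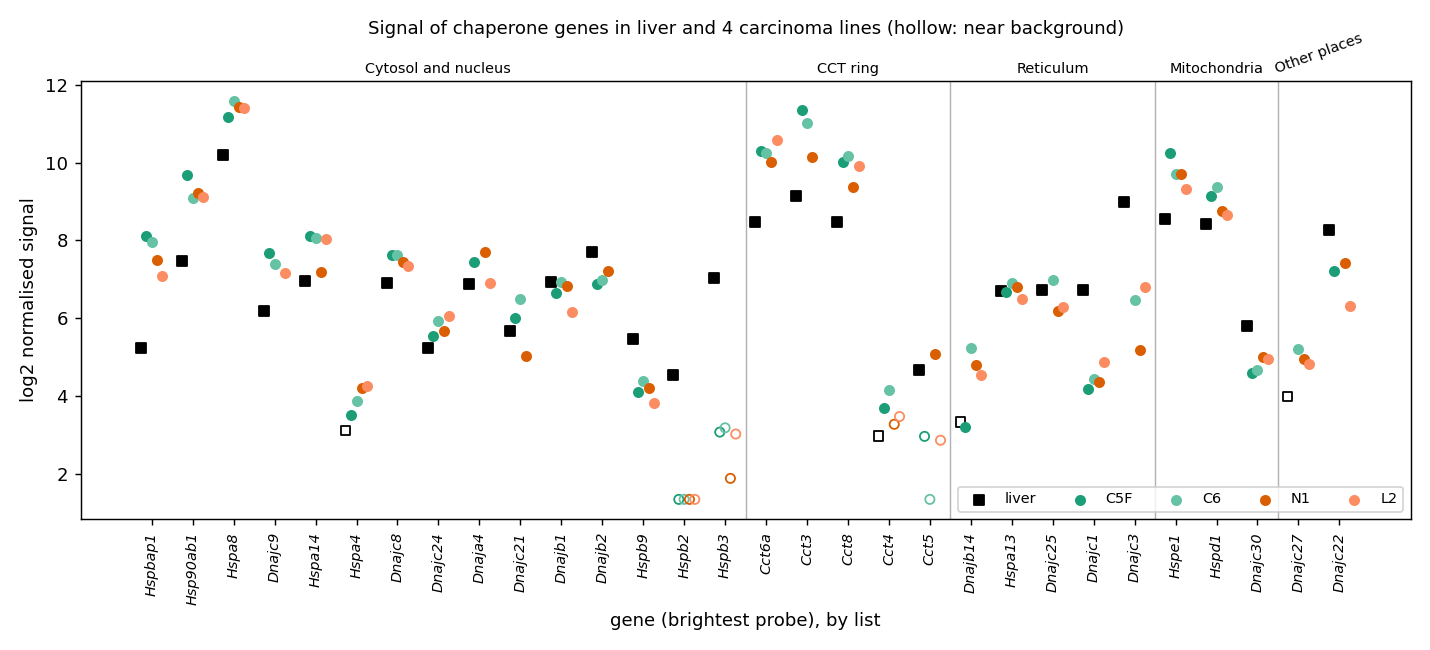
Log2 quantile-normalised signal of the 30 chaperone genes tested against liver, in liver, C5F, C6, N1 and L2, 1 point an array, with open points for values near background. Hsp90ab1, Hspa8, Cct6a and Cct8 lie above liver in all 4 lines, Dnajc1 lies below it, and levels of different genes are not comparable.

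Reticulum members lay on both sides of liver. Of 5 genes tested, 1 fell and none rose; 2 were above and 3 below liver. The median difference was −0.12, a sign that rests on the scaling: it was 0.10 with arrays scaled to the median of probes above background and 0.098 with the authors' normalized intensity. With probes counted singly it was −0.32 over 8 probes. Dnajc1, a J protein of the reticulum membrane, had 6.73 in liver, 4.18 for C5F, 4.43 for C6, 4.36 for N1 and 4.86 for L2, a difference of −2.27 ± 0.31 (limma adjusted p = 0.0303). All 4 lines were well below liver. Dnajc3, a BiP co-chaperone of the unfolded protein response whose window is printed above, had 8.99 in liver, 6.47 for C6, 5.17 for N1 and 6.79 for L2, with no usable spot in C5F. Each of these lines was below liver, but the spread among them was wide (difference −2.76 ± 0.89, limma adjusted p = 0.16).

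Other reticulum members moved less. Hspa13, an Hsp70 of microsomes, had 6.70 in liver, 6.68 for C5F, 6.90 for C6, 6.81 for N1 and 6.49 for L2, a difference of 0.02 ± 0.25. Dnajb14, a J protein of the reticulum membrane, was near background at 3.33 in liver and had 3.19 for C5F, 5.24 for C6, 4.79 for N1 and 4.55 for L2 (limma adjusted p = 0.423). Dnajc25 had 6.73 in liver, 6.97 for C6, 6.18 for N1 and 6.29 for L2 (limma adjusted p = 0.747). In none of these did the lines separate from liver as those of Dnajc1 did.

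For BiP itself, Hspa5, the usable values were 7.62 for C5F and 6.93 for N1, with no usable spot in liver, C6 or L2. Dnajb11, a BiP co-chaperone in the lumen, had 5.94 for C5F and 6.58 for C6 on its brightest probe, and on a dimmer one 4.33 in liver, 4.80 for C5F, 4.41 for C6, 4.80 for N1 and 4.31 for L2. Dnajb9, a J protein that binds BiP and the stress sensor Ern1, had 4.17 for C5F, 4.73 for C6, 4.33 for N1 and 4.81 for L2, with no usable liver spot. Thus 2 of the 3 genes with a printed reticulum element had no usable liver value on the brightest probe.

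Mitochondrial members numbered 3 among the genes tested, none past the threshold, with a median difference of 0.56. Hspe1, the co-chaperonin Hsp10, had 8.56 in liver, 10.24 for C5F, 9.70 for C6, 9.71 for N1 and 9.33 for L2 (difference 1.19 ± 0.34, limma adjusted p = 0.0975). Its partner Hspd1, Hsp60, had 8.42 in liver, 9.13 for C5F, 9.37 for C6, 8.75 for N1 and 8.64 for L2 (0.56 ± 0.22, limma adjusted p = 0.17). The pair lay above liver in every line. Dnajc30, a mitochondrial J protein, had 5.81 in liver, 4.58 for C5F, 4.67 for C6, 5.0 for N1 and 4.94 for L2, below liver in every line (−1.01 ± 0.20, limma adjusted p = 0.0515).

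Of the members placed elsewhere or with no settled place, Dnajc22 had 8.26 in liver, 7.20 for C5F, 7.41 for N1 and 6.31 for L2 (limma adjusted p = 0.281). Dnajc27 was near background at 3.99 in liver and had 5.20 for C6, 4.96 for N1 and 4.82 for L2, at least 2.08-fold higher (limma adjusted p = 0.105). These 2 lay on opposite sides of liver.

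Line by line, 21 genes had a usable value on every array. In 12 of them all 4 lines lay above liver, where 38.2% of all named genes did, and in 5 all 4 lay below, where 34.6% did. The 12 were Dnajc8, Dnajc24, Hsp90ab1, Hspa4, Hspa8, Hspa14 and Hspbap1 of the cytosol, Cct4, Cct6a and Cct8 of the ring, and Hspd1 and Hspe1 of mitochondria. Cct4 was near background in liver, N1 and L2, so its order is not a measured one. Nor is that of Hspa4, near background in liver. Its values for C5F (3.51) and C6 (3.86) lie under the lowest liver signal above background (3.87). The 5 were Hspb2, Hspb3, Hspb9, Dnajc1 and Dnajc30. No reticulum gene was among the 12, of the 3 that could be read this way. Over the 15 genes above background on all 5 arrays, the median difference from liver was 0.71 for C5F, 0.95 for C6, 0.44 for N1 and 0.78 for L2, beside 0.17, 0.17, 0.22 and 0.078 for all 1917 such named genes.

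**Figure D3:**
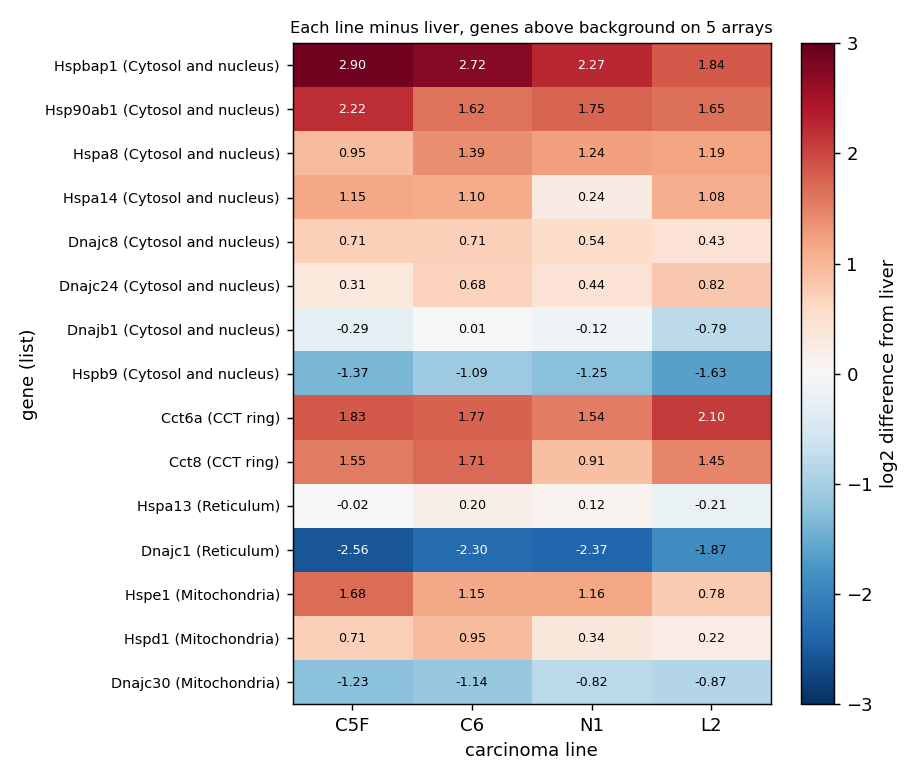
Log2 difference of each carcinoma line (columns) from liver for the 15 chaperone genes (labelled with their compartment) above background on all 5 arrays, red for higher and blue for lower than liver. Hspbap1 runs from 1.84 for L2 to 2.90 for C5F, and Dnajc1 from −2.56 for C5F to −1.87 for L2.

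The irregular spots mattered most for genes with missing liver or line values. With those spots kept, 51 members could be tested against liver. Of these 8 rose, where 11.5% of all 8663 named genes tested under that setting did, and 3 fell, where 8.99% did. The 8 were Hspbap1, Hsp90ab1 and Cct6a with Cct2, Dnaja2, Dnajc2, Dnajc9 and Dnajc27. Cct2 then read 3.40 in liver, 5.62 for C5F, 5.69 for C6, 5.58 for N1 and 5.31 for L2 (limma adjusted p = 0.0194). Dnaja2, a J protein partner of Hspa8, read 6.20 in liver, 7.66 for C5F, 7.52 for C6, 7.48 for N1 and 7.54 for L2 (limma adjusted p = 0.0318). Dnajc2, a J protein of the ribosome, read 7.21 in liver, 8.88 for C5F, 9.29 for C6, 8.68 for N1 and 9.07 for L2 (limma adjusted p = 0.0414). In each of the 3, the lines lay together above liver.

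With the same spots kept, Hspa5 read 7.41 in liver, 7.65 for C5F, 7.22 for C6, 6.87 for N1 and 6.98 for L2, so that liver lay within the range of the lines (limma adjusted p = 0.563). Hspb1 read 6.69 in liver, 7.80 for C5F, 8.34 for C6, 8.97 for N1 and 7.78 for L2, above liver in every line (1.54 ± 0.59, limma adjusted p = 0.155). Hsph1 read 7.91 in liver, 7.32 for C5F, 7.61 for C6, 6.85 for N1 and 7.52 for L2, and Dnajb9 read 5.93 in liver (limma adjusted p = 0.307 and 0.0935). The brightest Hspb8 probe read 7.46 in liver, 7.57 for C5F, 7.26 for C6, 6.90 for N1 and 7.25 for L2, with 3 lines below liver (−0.21 ± 0.27, limma adjusted p = 0.601), on the other side of liver from its dimmer probe. Part of these values come from spots that the scanner software doubted.

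The calls of the liver comparison changed when a line was left out. Without C5F or without C6, none of the 6 genes passed, nor did any probe on the array. Without N1 or without L2, calls were lost too. Hspb2 and Hspb3 were near background in all 4 lines and kept through liver alone. Any call kept for them rests on near-background line values and is no sign of a firmer result. Hsp90ab1 also missed the threshold with arrays scaled to the median of probes above background, with a higher floor and with no filter on dim probes (limma adjusted p = 0.0648, 0.0608 and 0.0982). Cct6a missed it with the higher floor and with no filter (0.0549 and 0.0904), and Hspb3 and Dnajc1 with no filter (0.0733 and 0.0655).

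Partner genes were counted for each compartment, beside the 8.73% of all named genes tested that rose and the 9.91% that fell. In the cytosol, of 19 tested co-chaperones and heat shock factors, 1 rose and 1 fell, with a median difference of 0.64. Cdc37, which brings kinases to Hsp90, had 8.19 in liver, 9.46 for C5F, 9.91 for C6, 9.82 for N1 and 9.85 for L2 (1.57 ± 0.27, limma adjusted p = 0.0433). Cryab fell, at least 1.84-fold (limma adjusted p = 0.0336). Like Hspb2 and Hspb3, Cryab was kept because liver alone stood above background, so only a fall could be called. The phosducin-like CCT co-factor Pdcl3 differed by 1.34 ± 0.26 (limma adjusted p = 0.0516). Cdc37 stood above liver in every line, as Hsp90ab1 did.

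In the reticulum, of 12 tested partners none rose and 2 fell, where 8.73% and 9.91% of all named genes did. Below liver lay 10 of the 12, beside 2598 of 5845 named genes, and the median was −0.30. Herpud1, a stress-induced protein of reticulum-associated degradation, had 6.19 in liver, 4.61 for C5F, 4.49 for C6, 4.31 for N1 and 4.34 for L2 (−1.75 ± 0.20, limma adjusted p = 0.0233). Syvn1, the ubiquitin ligase of that pathway, had 4.74 in liver, 3.53 for C5F, 3.74 for C6, 3.58 for N1 and 3.49 for L2, near background in N1 and L2 (limma adjusted p = 0.0485). All 4 lines lay below liver for both genes. The disulfide isomerase P4hb and Atf4 went the other way without passing. P4hb went from near background at 3.98 in liver to between 4.51 and 5.96 in the lines (limma adjusted p = 0.246). Atf4 had 8.68 in liver, 10.12 for C5F, 9.75 for C6, 9.87 for N1 and 9.42 for L2 (limma adjusted p = 0.0949).

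Of the 4 mitochondrial partners tested, none passed, and their median was 0.79. The import subunit Timm44 was near background at 2.73 in liver and had 4.35 for C5F, 3.76 for C6, 4.53 for N1 and 4.18 for L2 (limma adjusted p = 0.0707). The Hspa9 exchange factors Grpel2 and Grpel1 differed from liver by 1.38 ± 0.35 and −0.35 ± 0.44 (limma adjusted p = 0.117 and 0.6). The calls of Cdc37, Cryab, Herpud1 and Syvn1 ended when any 1 line was left out and with arrays scaled to the median of probes above background.

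The second comparison asked whether chaperones differ between lines of high and low metastatic ability. None of the 37 genes tested passed (limma, lowest adjusted p = 0.67), where 0% of all 6968 named genes tested did. At an unadjusted p below 0.05 there were 2 of 37, Hspbap1 and Hspbp1, beside 7.16% of all named genes. More members were lower than higher in the high-metastatic lines, 24 against 12, beside 3536 against 3376 of all named genes tested. The median difference of the members was −0.22, beside −0.01 for all named genes.

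Of 23 genes with a usable value in all 4 lines, 8 had both high-metastatic lines below both low-metastatic lines, where 19.2% of all named genes did, and 2 had both above, where 17.6% did. The 8 were Dnajc8, Hspa14, Hspb3, Hspbap1, Cct4, Cct8, Dnajc15 and Hspd1, and the 2 were Hspa4 and Dnajc30. Hspb3 was near background in all 4 lines and Cct4 for N1 and L2, so the order of such values within these counts is not a measured one. With 2 lines a class, such separation carries no test.

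**Figure D4:**
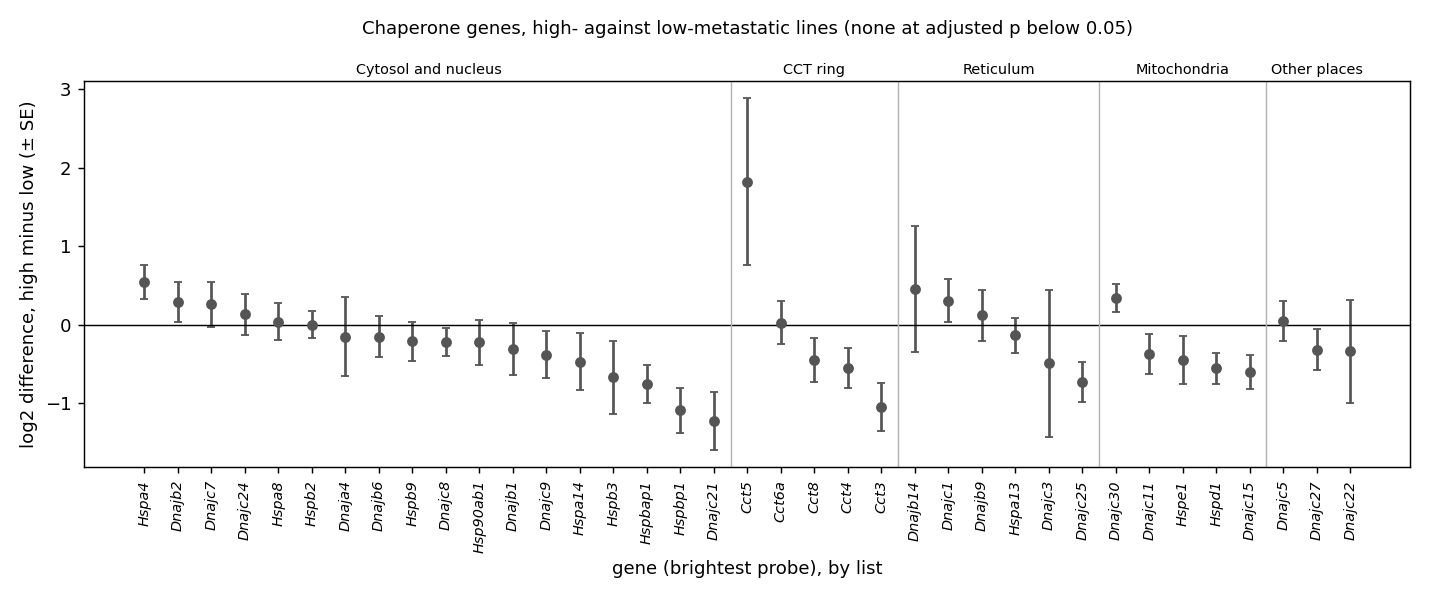
Difference of the high-metastatic lines N1 and L2 from the low-metastatic lines C5F and C6 (log2, bars ± SE from limma) for the 37 chaperone genes tested, ordered within each compartment. No gene passed the threshold, and the largest bars belong to Cct5, Dnajc3 and Dnajb14, whose lines differed within a class.

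In the cytosol the median over 18 genes was −0.22, and 12 were lower. Hspbp1, an exchange factor of Hsp70, had 8.04 for C5F, 7.79 for C6 and 6.82 for L2, while its N1 and liver spots were not usable (−1.09 ± 0.29, limma adjusted p = 0.67). Dnajc21, which works in ribosome maturation, had 6.0 for C5F, 6.48 for C6 and 5.02 for N1 (−1.23 ± 0.37, limma adjusted p = 0.681). Hspbap1 differed by −0.75 ± 0.24 and Hspa4 by 0.55 ± 0.22 (limma adjusted p = 0.67 and 0.705). Hsp90ab1, Hspa8 and Dnajb1 differed by −0.22 ± 0.29, 0.04 ± 0.24 and −0.31 ± 0.33. For Hsp90ab1 and Hspa8 the difference was within 1 SE of 0, and that of Hspa8 turned negative with both other scalings.

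Among CCT subunits the classes gave no common direction, and the sign of their median, −0.45, turned without C5F (0.051) and without N1 (0.069). Cct3 and Cct8 differed by −1.05 ± 0.31 and −0.45 ± 0.28, Cct4 by −0.55 ± 0.26, Cct6a by 0.02 ± 0.28 and Cct5 by 1.82 ± 1.06 (limma adjusted p = 0.681 to 0.995). Among the lines, Cct5 was above background in N1 only.

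The reticulum members had a median of −0.008 over 6 genes, 3 higher and 3 lower, a sign that turned with the authors' normalized intensity and without C6, N1 or L2. Dnajb12 is not among the 6, since its brightest probe had no usable spot in C6 or N1. Its dimmer probes differed by −1.05 ± 0.33 and −0.54 ± 0.25 (limma adjusted p = 0.67 and 0.73). With reticulum probes counted singly, the median was −0.091 over 10 probes. Dnajc25 differed by −0.73 ± 0.26, Dnajc3 by −0.49 ± 0.93, Dnajb14 by 0.46 ± 0.81 and Dnajb9 by 0.12 ± 0.33 (limma adjusted p = 0.706 to 0.938). For Dnajc3, N1 at 5.17 lay well below both L2 and C6. A dimmer Dnajc3 probe had 4.64 for C5F, 4.56 for C6, 4.14 for N1 and 5.09 for L2, a difference of 0.02 ± 0.40.

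Mitochondrial members were lower in 4 of 5 genes, with a median of −0.45. Dnajc15, a J protein of the inner membrane translocase, had 8.36 for C5F, 8.18 for C6, 7.52 for N1 and 7.82 for L2 (−0.60 ± 0.22, limma adjusted p = 0.681). Hspd1 differed by −0.56 ± 0.20 and Hspe1 by −0.45 ± 0.30 (limma adjusted p = 0.681 and 0.79). The classes did not overlap for Dnajc15 and Hspd1, and for Hspe1 C6 and N1 were almost level. Of the members in other places, Dnajc22, Dnajc27 and Dnajc5 differed by −0.34 ± 0.66, −0.32 ± 0.26 and 0.05 ± 0.25.

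Among partners, none of 21 cytosolic, 14 reticulum and 7 mitochondrial genes passed between classes, and their medians were 0.045, −0.03 and −0.42. Of the mitochondrial ones, the proteases Lonp1 and Clpp and the exchange factor Grpel1 differed by −0.62 ± 0.44, −0.56 ± 0.19 and −0.61 ± 0.40. The prefoldin subunit Pfdn1, which delivers actin and tubulin to CCT, had 8.33 for C5F, 8.40 for C6, 9.07 for N1 and 8.94 for L2, with no overlap of the classes (0.64 ± 0.18, limma adjusted p = 0.67). Hsf2, a heat shock factor, differed by 0.83 ± 0.51, and Ppid, a cyclophilin of Hsp90 complexes, by −0.90 ± 0.31. In the reticulum, Sdf2l1, Sil1 and Eif2ak3 differed by −1.69 ± 0.61, 1.14 ± 0.56 and −0.95 ± 0.28. Each of these 3 lacked a usable spot in 1 line of a class.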

How the data were processed

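RNA extracted with ISOGEN was labelled with biotin as cRNA and hybridised to CodeLink arrays, per the labels' protocols. Per the file headers, CodeLink Expression Analysis wrote a background-subtracted raw intensity and a normalized intensity, the raw value over the array median. The deposited value table held the normalized intensity (largest difference 0). Here the raw intensity was set missing on irregular, contaminated or masked spots, quantile-normalised, raised to a floor of 2.53, the median near-background signal, and taken to log2. Probes above background in liver or at least 2 lines were kept (16377). limma 3.58.1 in R 4.3.3 fitted 3 groups (lmFit, eBayes, two-sided, Benjamini-Hochberg over all 13741 probes tested between classes and 11949 against liver, threshold 0.05), after a test on simulated data. The single liver has no spread of its own and borrows that of the lines. Each array was on its own slide, so slide could not be a term.

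Gene names came from the platform annotation, updated through RefSeq. Of the discovery probes, 16753 had 1 symbol, 165 several and 16931 none. The members and gene lists were chosen with earlier results of these data known. Named genes were the main chaperones, every gene past the threshold and the 3 largest differences in each list and comparison. Other members and partners are named where counts are listed, irregular spots change a value or only dimmer probes were tested, chosen after their values were seen. The alternatives tried were scaling, floor, offset, filter, irregular spots, moderation, grouping, probe choice and leaving out each line. The number of arrays limits the precision.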

Additional observations from a re-analysis of the deposited data

Results flagged for a closer look

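In 23 genes with usable values in all 4 lines, each gene's extreme line was compared with the others by Dixon's ratio of gap to range, which chance alone exceeds in about 1 in 20 groups. The ratio passed that level in 2 of the 23 genes, both for N1, and the share over all named genes was not computed. For Hspa14, an Hsp70 of the ribosome, N1 had a log2 signal of 7.19, near the liver's 6.95, while the other 3 lines had 8.03 to 8.11. For Hspb3, N1 had 1.88 and the other lines 3.02 to 3.18, all near background.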

How the results depend on the processing

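Differences are log2. No call past the threshold changed sign. The reticulum medians, the CCT class median and the class differences of Cct6a, Dnajb1, Dnajb9, Dnajb14, Dnajc5, Hsp90ab1 and Hspa8, none of them calls, did under at least 1 setting: the authors' normalized intensity, for example, gave 0.085 for the reticulum class median, −0.089 for Cct6a and −0.082 for Hspa8, and array medians −0.27 for both genes. The count of members above liver, 3, became 6 with an offset of 50, 8 with irregular spots kept and 1 with no filter, and 0 without any 1 line; the count below, 3, was 0 to 2 without 1 line. Fitted differences of dim genes depend on the floor: that of Hspb2 was −3.20, −0.53 with the offset and −0.68 with a higher floor. Over the array, 1077 probes rose and 1121 fell; without the filter these were 623 and 1725, with irregular spots kept 1850 and 1485, and with the lines as 1 group 1459 and 1271. Scaling to array medians of probes above background moved the median of all probes to 0.29 (liver comparison) and −0.12 (classes). Of the class medians, it moved cytosol to −0.36, CCT to −0.68 and mitochondria to −0.74; the authors' normalized intensity gave −0.14 for cytosol and −0.55 for mitochondria; the offset −0.10 for cytosol and −0.11 for CCT; the higher floor −0.14 for CCT; no filter −0.13 for cytosol; and all probes counted singly −0.21 for CCT. The cytosolic median against liver was 0.75 with array medians and 0.27 with the offset, and that of CCT 1.04 with Tcp1 counted, an alternative chosen after seeing the data. Without 1 line, class medians ran from −0.23 to −0.11 (cytosol), −0.64 to 0.069 (CCT), −0.26 to 0.39 (reticulum) and −0.53 to −0.35 (mitochondria), and those against liver from 0.46 to 0.75, 1.13 to 1.46, −0.058 to 0.15 and 0.50 to 0.62. No paired analysis was possible because no replicate number links a line of one class to a line of the other. Dim spots limit most members: a value near background gives a bound only.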
